A study of Homo sapiens with 54 samples.

Results

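The genes described here encode the Kv4 potassium channel complex: the pore-forming subunits KCND1, KCND2 and KCND3, the calcium-binding subunits KCNIP1, KCNIP2, KCNIP3 and KCNIP4, and the membrane-anchored subunits DPP6 and DPP10. They are 9 of 19974 protein-coding genes on chromosomes 1 to 22 and X. The genes were chosen on peak-covered length in these data: DPP6 was picked because its covered length was higher after cisplatin in both cell lines, and the other 8 because they encode its known partners. Values of DPP6 are therefore given as a description, without a test. For each gene the window was the gene body with 10 kb on each side, and 7 of the 9 genes passed a filter of at least 500 bp of peaks in at least 3 lists.

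The data are ATAC-seq peak lists, which mark stretches of DNA that a transposase could enter in nuclei. MDA-MB-231 is an established breast cancer line and PC3 an established prostate cancer line, so each line is 1 cell population and not a set of donors. Each was left untreated, or treated with the DNA-crosslinking platinum drug cisplatin and sampled as surviving cells 1 day and 10 days after the drug was removed. The drug's dose and exposure time are not given in the sources used here. Each of the 6 groups (untreated, day 1 and day 10 in each line) had 3 biological replicates with 1 peak list each, so n = 3 lists per group throughout, and errors are standard deviations unless called standard errors.

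Kv4 channels open at voltages below the firing threshold and inactivate rapidly, giving the A-type potassium current of neurons and the transient outward current of heart muscle. KCNIP proteins bind the channel's cytoplasmic end and carry it to the surface. DPP6 and DPP10 resemble the serine peptidase DPP4 but lack its catalytic activity, and they speed up the opening and inactivation of the channel. These genes are best known from brain and heart, not from breast or prostate epithelium.

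The lists held 82392 to 165535 peaks and covered 54.4 to 82.3 Mb, and they carry no read counts, so depth is unknown. Covered length is given in kb, scaled so that every list has the same total. Lists of replicate 1 in the treated groups had a median peak width of 320 to 350 bp, against 401 to 541 bp in the other treated lists. In untreated MDA-MB-231 replicate 1 had 365 bp, and the other untreated lists had 429 to 592 bp. CDKN2A, known to be lost in MDA-MB-231, had 0 kb in the 9 lists of that line, against group means of 1.59 to 2.80 kb in PC3. The mesenchymal genes VIM and AXL had 6.45 ± 0.448 kb and 22.5 ± 2.22 kb in untreated MDA-MB-231, against 2.97 ± 0.140 kb and 8.02 ± 1.26 kb in untreated PC3. Of 6 neuronal genes (RBFOX3, SNAP25, SYT1, STMN2, MAP2 and SYP), 0 were called higher in MDA-MB-231 at day 1 and 1 in each of the other 3 comparisons with untreated cells, STMN2 in MDA-MB-231 at day 10 and RBFOX3 in PC3 at both times. None of the 6 was called lower in these 4 comparisons. The shares of all genes called higher were 10.9% and 11.0% in MDA-MB-231. For PC3 they were 6.02% and 11.8%.

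The upstream sequences of 5 start sites are shown first, since the lists differ most plainly there for KCNIP1 and KCNIP2 and hold nothing there for DPP6. Each runs 5′ to 3′ along the gene's strand for the 250 bases before a RefSeq start (GRCh38.p14), and capitals mark the motifs found. The 4 motifs searched on both strands were the AP-1 motif TGANTCA, the GC box GGGCGG, the CCAAT box, searched as those letters, and the TATA box, searched as TATAAA. None of them contains another.
KCNIP1, outer start, chr5:170353237-170353486, plus strand: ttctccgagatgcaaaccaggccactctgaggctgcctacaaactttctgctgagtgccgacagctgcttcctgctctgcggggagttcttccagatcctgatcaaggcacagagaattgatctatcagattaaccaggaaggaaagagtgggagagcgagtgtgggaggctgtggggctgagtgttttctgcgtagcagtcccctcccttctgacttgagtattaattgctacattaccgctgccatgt
KCNIP1, inner start, chr5:170503770-170504019, plus strand: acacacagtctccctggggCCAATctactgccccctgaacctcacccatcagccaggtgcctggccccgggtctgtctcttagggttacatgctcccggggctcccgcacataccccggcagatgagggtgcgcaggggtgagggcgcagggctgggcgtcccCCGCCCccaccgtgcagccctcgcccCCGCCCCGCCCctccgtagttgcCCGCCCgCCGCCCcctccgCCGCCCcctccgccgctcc
KCNIP2, inner start, chr10:101839872-101840121, minus strand: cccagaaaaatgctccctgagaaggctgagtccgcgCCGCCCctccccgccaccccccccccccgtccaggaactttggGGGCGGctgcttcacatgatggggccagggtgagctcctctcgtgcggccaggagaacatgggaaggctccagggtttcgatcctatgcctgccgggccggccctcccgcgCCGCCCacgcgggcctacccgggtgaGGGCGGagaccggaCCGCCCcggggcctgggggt
DPP6, outermost start, chr7:153747883-153748132, plus strand: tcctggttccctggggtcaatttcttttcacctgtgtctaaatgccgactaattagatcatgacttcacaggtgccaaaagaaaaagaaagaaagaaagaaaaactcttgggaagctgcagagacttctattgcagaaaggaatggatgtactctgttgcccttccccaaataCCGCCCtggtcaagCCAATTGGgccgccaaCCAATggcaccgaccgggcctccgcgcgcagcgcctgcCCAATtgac
DPP6, next start, chr7:153886792-153887041, plus strand: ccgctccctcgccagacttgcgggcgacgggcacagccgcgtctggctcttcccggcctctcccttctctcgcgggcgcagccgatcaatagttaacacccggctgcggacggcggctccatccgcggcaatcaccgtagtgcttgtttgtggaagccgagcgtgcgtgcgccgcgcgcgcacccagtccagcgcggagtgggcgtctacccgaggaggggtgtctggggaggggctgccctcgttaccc

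The outer KCNIP1 stretch had 52% G and C, 6 CpG pairs and none of the 4 motifs. Of the 22 member starts examined, it was the 1 that gained a peak after treatment, in PC3. The inner KCNIP1 stretch had 74% G and C, 20 CpG pairs and 6 GC boxes, and no list had a peak there. The KCNIP2 stretch had 72.4% G and C and 5 GC boxes. At DPP6, the outermost stretch had 50.4% G and C with 1 GC box and 4 CCAAT boxes, 2 of which overlap, and the next stretch had 70% G and C, 32 CpG pairs and no motif. Among 35114 stretches of the same length before RefSeq starts, the median was 58% G and C and 11 CpG pairs. Of these stretches 42.6% held a GC box, 32.0% a CCAAT box, 10.7% a TATA box and 6.57% the AP-1 motif. These matches describe the letters and not a bound factor.

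KCNIP1 (chr5:170353487-170736632) has its outer start at base 170353487. A peak overlapped the 300-base window around that start in 3 of 3 PC3 lists at day 1 and 3 of 3 at day 10, in 0 of 3 untreated PC3 lists and in 0 of 9 MDA-MB-231 lists. Over all 22132 start windows examined, 0.384% gained a peak in this way in PC3 at day 1 and 0.587% at day 10, and 44 windows (0.199%) did so at both times. The peaks of this region (chr5:170353032-170353759) had a median width of 681 bp. At the KCNIP2 inner start (base 101839871), a peak overlapped the window in 9 of 9 MDA-MB-231 lists and 0 of 9 PC3 lists, a pattern found at 2.24% of all windows. Within 1 kb of that start every one of the 18 lists had a peak, so the lines differ in the start window and not in whether the area has a peak. Whether both lines have the same peak there, with other ends, was not analysed.

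Most other starts of these genes had no peak. Of 22 annotated starts, 4 had a peak in at least 1 list, and 6 when the window was widened to 1 kb on each side. All 4 starts of DPP6, all 6 of DPP10 and all 3 of KCNIP4 had no peak in any of the 18 lists, even within 1 kb. For comparison, 54.1% to 59.3% of all start windows had a peak in 3 of 3 lists of a group. The KCND2 start had a peak in 1 list, the first replicate of MDA-MB-231 at day 1, but a peak within 1 kb in all 18. The outer KCND3 start had one in replicate 1 of each MDA-MB-231 group and in no other list.

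DPP6 (chr7:153748133-154894285), the membrane subunit that modulates Kv4 gating, spans 1146 kb and shares its window with no other protein-coding gene. In untreated MDA-MB-231 it had 1.27, 0.771 and 0.929 kb of peaks in the 3 lists. At day 1 these were 9.15, 6.76 and 6.83 kb, and at day 10 they were 10.2, 8.67 and 6.97 kb. All 6 treated lists lay above all 3 untreated lists, and day 1 overlapped day 10. In untreated PC3 the gene had 0.186 kb in replicate 1 and was listed at 0 in the other two. At day 1 PC3 had 1.92, 0.787 and 1.23 kb, and at day 10 it had 7.44, 2.79 and 7.73 kb. Day 10 lay above day 1 and day 1 above untreated in every PC3 list, with a wide spread at day 10 set by replicate 2. Because the cells were measured in bulk, more cells with an open site and a more open site per cell cannot be told apart.

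On the log2 scale of scaled length plus 500 bp, DPP6 in MDA-MB-231 was 2.44 higher at day 1 and 2.61 higher at day 10. In PC3 it was 1.66 and 3.43 higher, each with a standard error of 0.29. The mean ratio in MDA-MB-231 was 7.66 at day 1 and 8.72 at day 10, whereas no ratio is given in PC3, where 2 untreated lists are at 0. Among the 16816 genes that passed the filter, 7 had a larger rise than DPP6 in MDA-MB-231 at day 1, 11 at day 10, 19 in PC3 at day 1 and 3 at day 10. Leaving out any list kept the 4 values between 1.43 and 3.86. Counting only the 50000 peaks of largest area per list left 1.25, 1.07, 0 and 0.83, the 0 being PC3 at day 1. With 50 kb on each side they were 1.37, 1.47, 0.42 and 1.55.

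**Figure D1:**
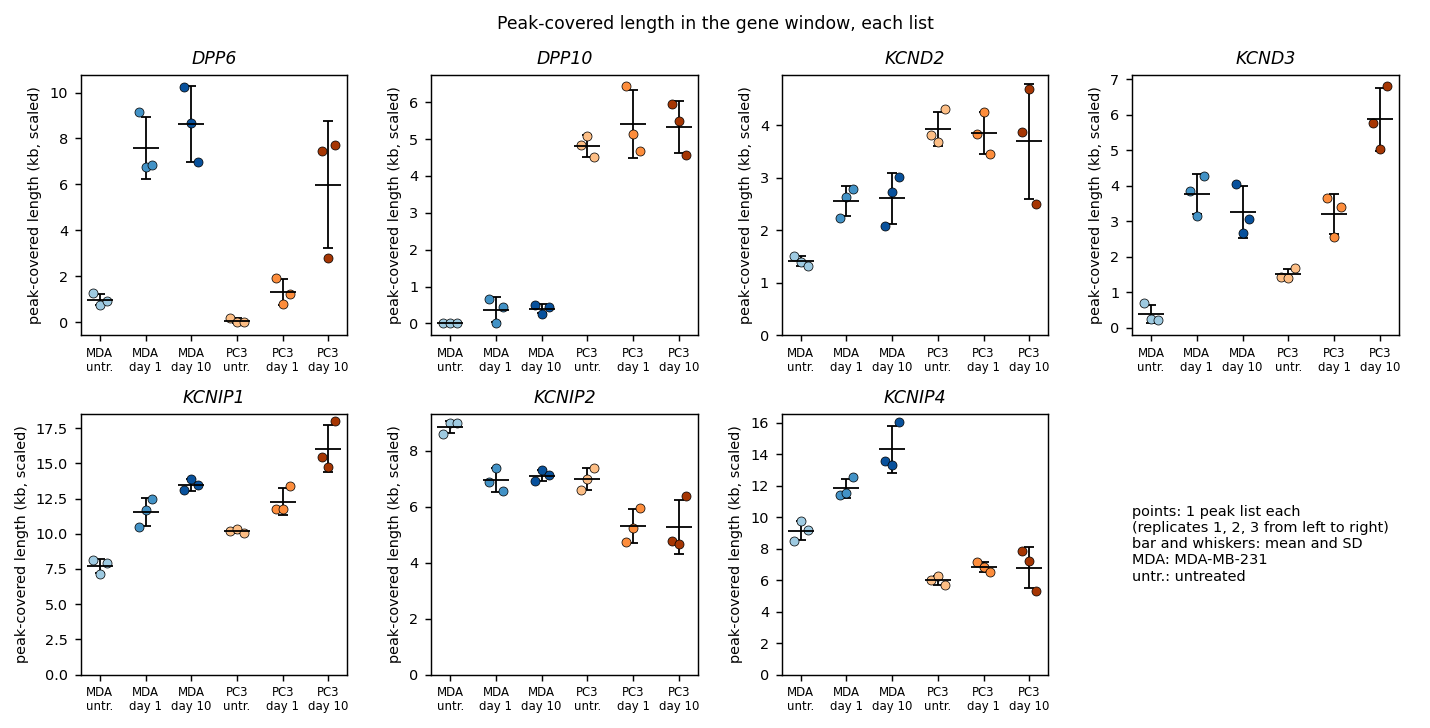
Peak-covered length (kb, scaled to equal list totals) of the 7 genes with peaks, by group; points are lists, bars and whiskers the mean and SD of 3. In DPP6 the untreated lists lie between 0 and 1.27 kb and the day 10 lists between 2.79 and 10.2 kb, and KCNIP2 is the gene whose treated lists lie below its untreated lists in both lines.

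The DPP6 peaks fell into 39 regions (peaks of all lists merged), 195 to 2067 bp wide with a median of 402 bp. Of these, 16 were seen in both lines, 12 in MDA-MB-231 alone and 11 in PC3 alone, 14 were in 1 list, and 0 were in all 18. They were unevenly placed. The first 500 kb from the outermost start (with the 10 kb before it) held 18 regions, the next 490 kb held 4, and the last 166 kb, up to 10 kb past the gene's end, held 17. In that last stretch MDA-MB-231 went from 0.906 ± 0.125 kb untreated to 5.17 ± 0.644 kb at day 1 and 5.57 ± 1.11 kb at day 10. PC3 went from 0.0620 ± 0.107 kb to 1.06 ± 0.238 kb and 3.11 ± 1.44 kb. The first stretch was nearly bare in untreated cells, at 0.0841 ± 0.146 kb in MDA-MB-231 and 0 in PC3, and at day 10 had 2.77 ± 0.282 kb and 2.56 ± 1.27 kb. In PC3 at day 1 it still had 0.254 ± 0.439 kb. The boundaries of these stretches were set after the positions had been seen.

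A region was called gained when it was in 3 of 3 treated lists and 0 of 3 untreated lists of its line. In MDA-MB-231, 9 of 28 DPP6 regions were gained at day 1 and 11 of 28 at day 10, and in PC3 2 of 27 and 8 of 27. A further 3, 4, 1 and 8 regions, in that order, missed the rule by 1 treated list. No DPP6 region was lost in these comparisons, against 0.676% and 0.901% of MDA-MB-231 regions and 0.402% and 1.30% of PC3 regions across the genome. Across the genome 7.85% and 10.1% of 149754 MDA-MB-231 regions and 4.25% and 10.4% of 191465 PC3 regions were gained. Since DPP6 was chosen for its rise, its shares are a description.

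Of the 16 regions seen in both lines, 7 lay in the first stretch, 1 in the middle and 8 in the last. The regions chr7:154767253-154767821 and chr7:154832313-154833160 were in all 12 treated lists and in no untreated list. Both lie inside the gene's span, 1019 kb and 1085 kb from the outermost start, and the second also lies within the non-coding gene LOC105375580. In all, 4 DPP6 regions were gained at day 10 in both lines, the other two being chr7:154178774-154179387 and chr7:154886573-154887304. The widest region, chr7:154776237-154778303, was in all 9 MDA-MB-231 lists, in 0 of 3 untreated PC3 lists, in 2 of 3 at day 1 and in 3 of 3 at day 10. The region chr7:154744289-154744524 came closest to being constant, missing from 2 untreated PC3 lists and 1 at day 1. Whether these regions are exonic or intronic was not analysed here. Most DPP6 peaks were small: in each group the median peak had 62.4% to 94.4% of its list's peaks above it by the authors' area score, and the strongest had 8.82%.

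**Figure D2:**
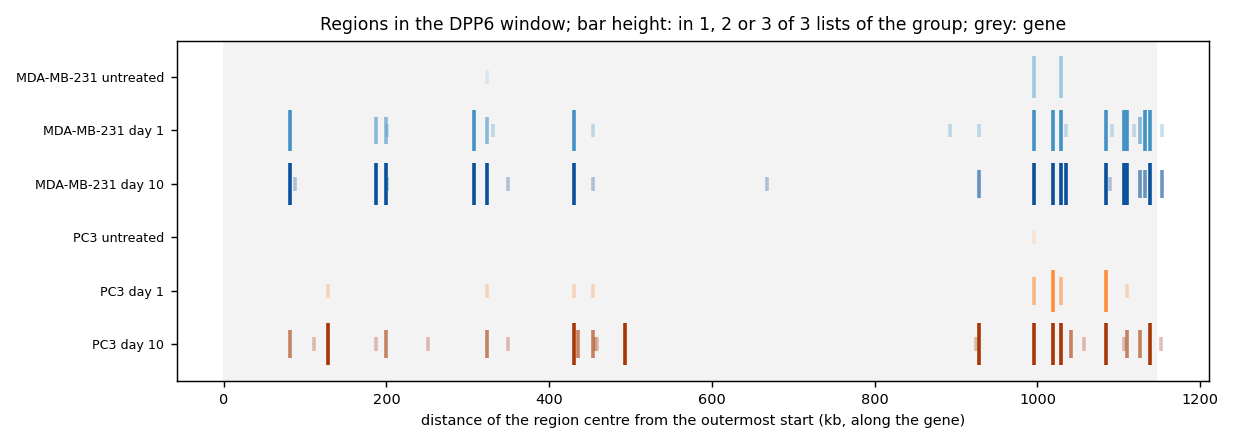
Regions in the DPP6 window by distance from the outermost start (kb) and group; bar height and shade give the number of lists with the region, 1 to 3, and grey marks the gene. Untreated cells have 3 regions in MDA-MB-231 and 1 in PC3, against 24 and 27 at day 10, most of them in the first 500 kb and the last 166 kb.

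The surroundings of DPP6 were examined as well. The 1 Mb before the window had 4.28 ± 0.344 kb in untreated MDA-MB-231, 10.8 ± 0.223 kb at day 1 and 11.4 ± 0.889 kb at day 10. In PC3 it had 3.50 ± 0.457 kb, 4.09 ± 0.690 kb and 11.5 ± 1.44 kb, so there too the day 10 lists stood well above the untreated lists. The 1 Mb after the window had 47.0 ± 2.42, 63.5 ± 1.43 and 66.4 ± 3.68 kb in MDA-MB-231, and in PC3 the values were 40.9 ± 1.54, 42.7 ± 0.699 and 45.1 ± 1.67 kb. In this neighbourhood, limma called CNPY1 higher in MDA-MB-231 by 2.72 (adjusted p = 1.52e-08) and 2.69 (6.39e-09) on the log2 scale. HTR5A, a serotonin receptor gene, was higher by 0.48 (adjusted p = 0.0238) and 0.70 (0.00191). In PC3 the calls around DPP6 were for lower coverage: EN2 at day 10 (-0.70, adjusted p = 0.0249), SHH at both times (-0.31, 0.0153 and -0.21, 0.0309) and ACTR3B at day 1 (-0.29, 0.0443). PAXIP1 and INSIG1, which lie between DPP6 and CNPY1, were not called in any of the 4 comparisons (adjusted p from 0.105 to 0.897).

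**Figure D3:**
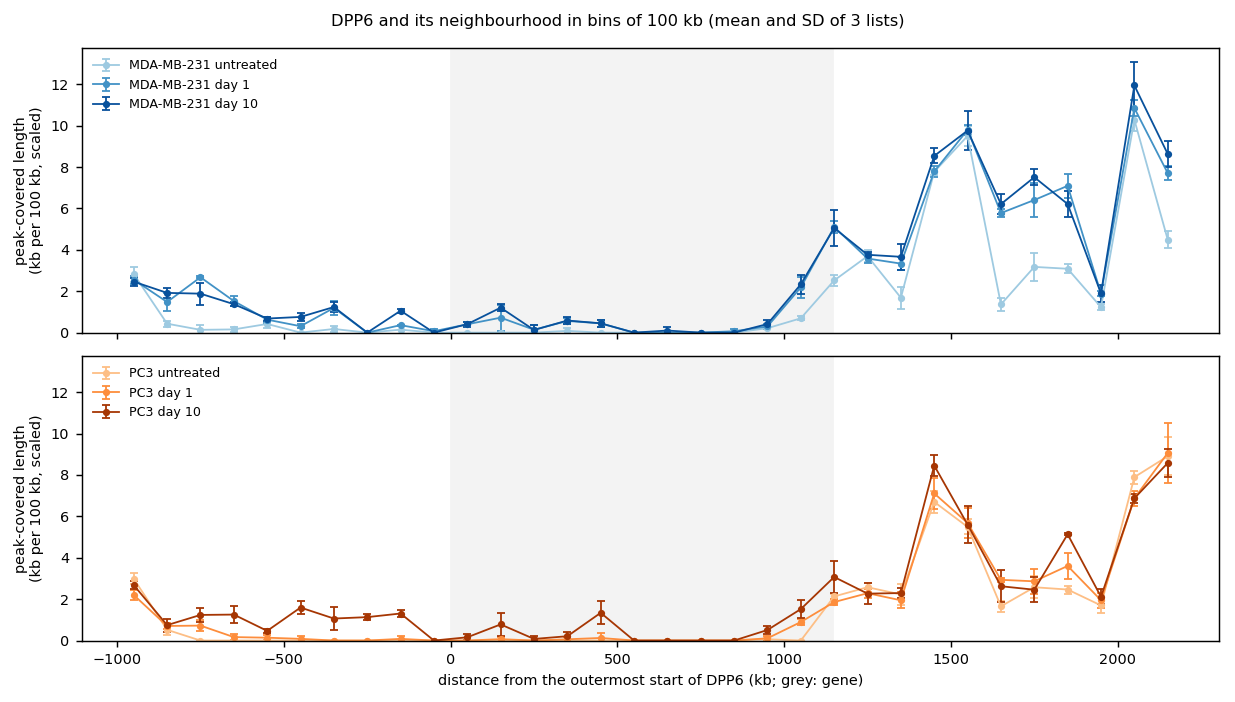
Peak-covered length per 100 kb bin (kb, scaled; mean and SD of 3 lists) by distance from the outermost start of DPP6, with MDA-MB-231 above and PC3 below and the gene in grey. Both day 10 lines and the day 1 line of MDA-MB-231 lie above the untreated line in many bins inside the gene and before it. In PC3 the day 1 line lies at 0 together with the untreated line in several bins, among them the first bin inside the gene.

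Partners of DPP6 were tested with limma across all 16816 genes, and a call is a Benjamini-Hochberg adjusted p under 0.05. The replicates are biological per the labels. Each gene's p-values rest on a spread between replicate lists, pooled over the 6 groups of both lines and drawn towards a trend across genes. They do not measure the spread within the compared groups alone, and both treated groups of a line share its untreated lists. Of the 8 partners, 6 passed the filter. DPP10 passed it through the PC3 lists, where it is high, so the counts that follow are over the other 5. In MDA-MB-231, 4 of these 5 were called higher and 1 lower at day 1, and likewise at day 10. In PC3, 2 of the 5 were higher and 1 lower at each time. Over all genes, 10.9% were called higher and 15.5% lower in MDA-MB-231 at day 1, and 11.0% and 16.7% at day 10. In PC3 these shares were 6.02% and 7.24% at day 1 and 11.8% and 33.1% at day 10. The median log2 difference of the 5 partners was 0.54, 0.69, 0.18 and 0.15 for those 4 comparisons. For all genes it was -0.09, -0.11, -0.07 and -0.16.

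The background split depends on the scaling. With median-of-ratios scaling in place of equal totals, the numbers of genes called higher and lower became 2231 and 954 in MDA-MB-231 at day 1 (from 1825 and 2609) and 2171 and 963 at day 10 (from 1849 and 2814). In PC3 they became 1473 and 403 (from 1013 and 1218) and 3423 and 2518 (from 1981 and 5566). That scaling moved the median of all genes to within 0.01 of 0 in all 4 comparisons. Genes with long windows were also counted apart. Of 335 genes with windows of at least 500 kb, MDA-MB-231 had 124 higher and 9 lower at day 1, then 158 and 24 at day 10. PC3 had 44 and 5 at day 1, then 107 and 59 at day 10. DPP6, DPP10 and KCNIP4 are among these long genes. KCND2, with a window of 497 kb, lies just under the cut, and KCNIP1 (403 kb), KCND3 (239 kb) and KCNIP2 (37.8 kb) lie further below it. Whether window length bears on the calls was not tested. Between day 1 and day 10 in MDA-MB-231, limma called 0 of the 5 partners (2.13% of all genes higher, 3.24% lower), and 2 of them, KCNIP1 and KCNIP4, had an unadjusted p under 0.05. In PC3, 2 of the 5 were higher at day 10 than at day 1 (2.19% higher and 5.5% lower over all genes).

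**Figure D4:**
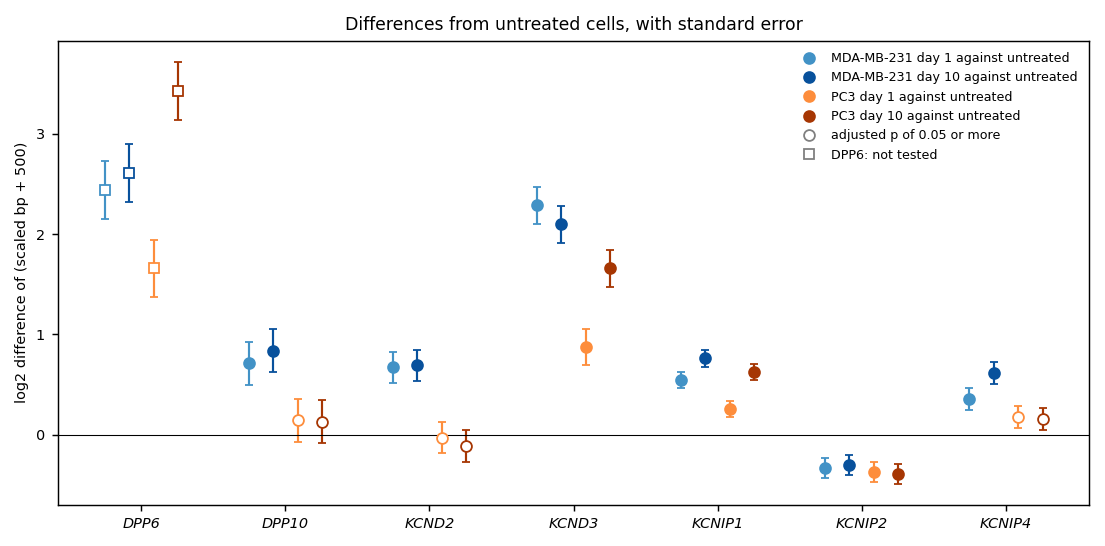
Log2 differences from untreated cells (scaled length plus 500 bp) with standard errors for the 7 genes with peaks, by line and time. Filled circles have an adjusted p under 0.05, and squares mark DPP6, which was not tested. DPP10 passed the filter through the PC3 lists, so its filled circles in MDA-MB-231 are not read as a result. KCND3 and KCNIP1 are filled and above 0 in all 4 comparisons, and KCNIP2 is below 0 in all 4.

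Among the pore-forming subunits, KCND3 (chr1:111770662-111989668), which carries much of the transient outward current of the heart, rose in both lines. Its window also holds DDX20. Untreated MDA-MB-231 lists had 0.697, 0.249 and 0.230 kb, day 1 lists 3.85, 3.15 and 4.28 kb, and day 10 lists 4.06, 2.67 and 3.05 kb. PC3 lists had 1.44, 1.41 and 1.68 kb untreated, 3.64, 2.57 and 3.41 kb at day 1, and 5.76, 5.05 and 6.80 kb at day 10. Neither line's treated lists overlapped its untreated lists, and in PC3 day 10 also lay above day 1. The log2 differences were 2.29 ± 0.18 (SE; adjusted p = 3.43e-07) and 2.10 ± 0.18 (3.15e-07) in MDA-MB-231. In PC3 they were 0.87 ± 0.18 (0.00666) and 1.66 ± 0.18 (6.55e-06), and day 10 exceeded day 1 by 0.78 (0.0146). That last call was lost without PC3 day 1 replicate 2 (adjusted p = 0.0898), without PC3 day 10 replicate 3 (0.0540) and by number of peaks (0.140). The PC3 call at day 1 was also lost with 50000 peaks per list (0.0706) and by number of peaks (0.172). Among all genes, 14 had a larger difference than KCND3 in MDA-MB-231 after 1 day, and 50 did after 10 days. For PC3 these numbers were 265 and 83.

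The gained KCND3 regions differed by line and time. In MDA-MB-231, chr1:111920182-111920932 was gained at both times, while chr1:111777999-111779061 and chr1:111801038-111801919 were in 3 of 3 lists at day 1 and 0 of 3 at day 10. In PC3, chr1:111856253-111857571 was gained at both times and was in no MDA-MB-231 list. Gained at day 10 in both lines were chr1:111904726-111905319 and chr1:111851526-111852033. All of these lie inside the gene's span. A region just before the gene, chr1:111990026-111991861, was in 16 of 18 lists, missing from 2 untreated MDA-MB-231 lists. Altogether 3 of 14 MDA-MB-231 regions of KCND3 were gained at day 1 and 4 of 14 at day 10, and 1 and 5 of 15 in PC3.

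KCND2 (chr7:120272908-120750337), the main dendritic Kv4 subunit of neurons, rose in MDA-MB-231 but was not called in PC3. Untreated MDA-MB-231 lists had 1.51, 1.40 and 1.32 kb, day 1 lists 2.23, 2.63 and 2.79 kb and day 10 lists 2.08, 2.73 and 3.02 kb. PC3 groups averaged 3.93 ± 0.328, 3.84 ± 0.402 and 3.69 ± 1.10 kb and overlapped throughout. In MDA-MB-231 the log2 differences were 0.67 ± 0.16 (SE; adjusted p = 0.00556) and 0.69 ± 0.16 (0.00374), with no overlap between treated and untreated lists. In PC3 the adjusted p was 0.924 and 0.577. When 50000 peaks per list were counted, the MDA-MB-231 values turned to -0.13 and -0.0569, and by number of peaks neither was called (adjusted p = 0.0866 and 0.0632). A single region, chr7:120743020-120743840, accounted for the gained regions of this line: it was in 0 of 3 untreated, 3 of 3 day 1 and 3 of 3 day 10 lists of MDA-MB-231 and in all 9 PC3 lists. Its strongest peak had 8.98% of its list's peaks above it.

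KCND1 (chrX:48961380-48971844) had no peak in any of the 18 lists. The whole stretch chrX:48836063-49171709, with 13 protein-coding genes, was without a peak in every list, so the 0 cannot be read as closed chromatin. KCNIP3 (chr2:95297347-95386077), whose product also binds DNA as a repressor, likewise had no peak, in a stretch without peaks at chr2:95235111-95641946 that holds 5 protein-coding genes.

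Of the KCNIP genes, KCNIP1 rose in both lines. Its window also holds KCNMB1, a subunit gene of another potassium channel. Untreated MDA-MB-231 lists had 8.12, 7.17 and 7.91 kb, day 1 lists 10.5, 11.7 and 12.4 kb and day 10 lists 13.1, 13.9 and 13.4 kb. PC3 lists had 10.2, 10.3 and 10.1 kb untreated, 11.7, 11.7 and 13.4 kb at day 1, and 15.4, 14.8 and 18.0 kb at day 10. In both lines untreated, day 1 and day 10 lists lay in that order without overlap. Log2 differences were 0.54 ± 0.08 (SE; adjusted p = 0.000187) and 0.76 ± 0.08 (3.30e-06) in MDA-MB-231, where the day 1 call was lost by number of peaks (0.115). In PC3 they were 0.26 ± 0.08 (0.0495) and 0.63 ± 0.08 (3.41e-05). The call in PC3 at day 1 was lost when any 1 of the 6 lists was left out (adjusted p 0.0558 to 0.192). PC3 at day 10 exceeded day 1 by 0.37 (0.0112), a call lost without PC3 day 1 replicate 2 (0.0617). That call was also lost with no scaling (0.148), with the upper 50% of each list (0.0825), by number of peaks (0.150) and with each line fitted alone (0.0537).

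Within KCNIP1, 12 of 44 regions were in all 18 lists. In MDA-MB-231 4 of 28 regions were gained at day 1 and 9 of 28 at day 10, and in PC3 3 and 7 of 39. The region chr5:170571113-170571835 was gained at both times in both lines, being in all 12 treated and none of the untreated lists. Its strongest peak had 13.1% of its list's peaks above it. Further along the gene, chr5:170590837-170591421 was gained in PC3 at both times and in MDA-MB-231 at day 10. The region at the outer start, chr5:170353032-170353759, was gained at both times in PC3 and was in no MDA-MB-231 list.

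**Figure D5:**
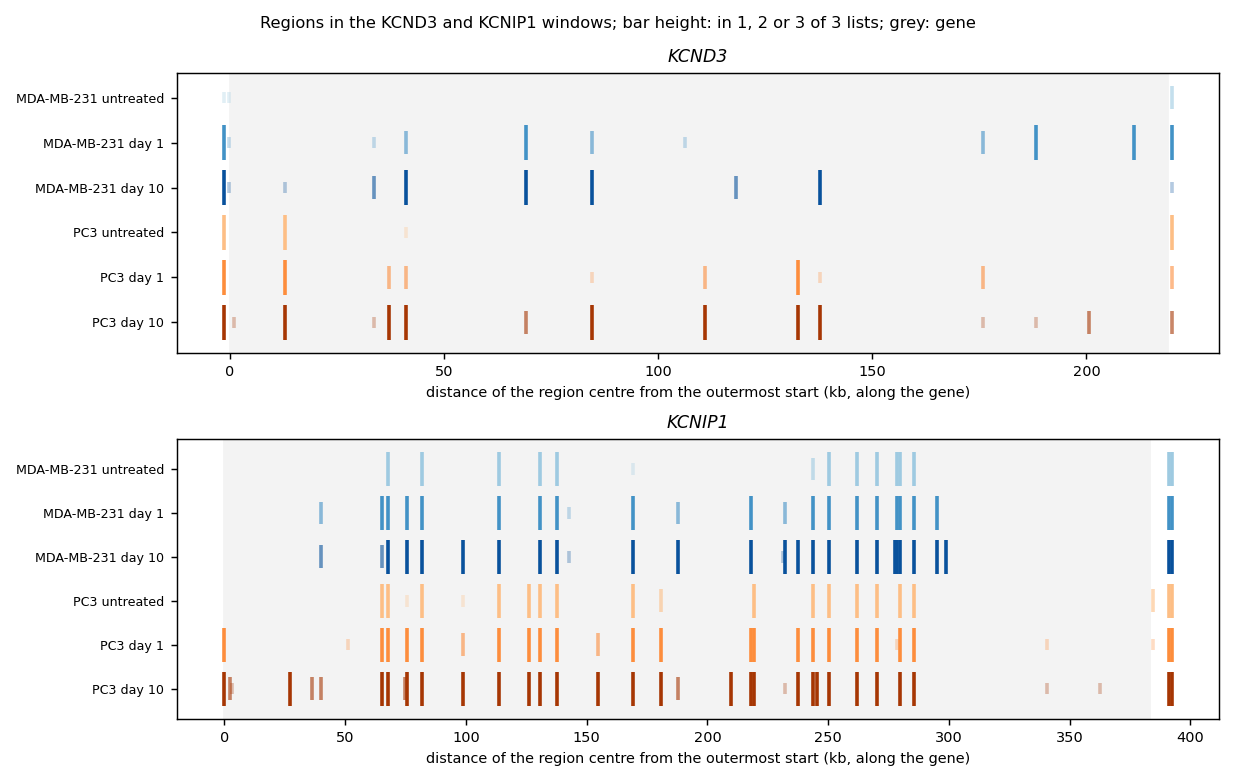
Regions in the KCND3 and KCNIP1 windows by distance from the outermost start along the gene (kb) and group; bar height and shade give the number of lists, 1 to 3, and grey marks the gene. KCND3 shows different regions in the lines and times, and KCNIP1 shows regions shared by all groups, with added ones after treatment, among them that at the start in PC3.

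KCNIP4 (chr4:20728606-21948772), a long gene whose window also holds PACRGL, rose in MDA-MB-231 and was not called in PC3. Untreated MDA-MB-231 lists had 8.53, 9.76 and 9.17 kb, day 1 lists 11.4, 11.6 and 12.6 kb and day 10 lists 13.6, 13.3 and 16.0 kb. The groups did not overlap. PC3 groups averaged 5.99 ± 0.295, 6.84 ± 0.303 and 6.80 ± 1.31 kb. The log2 differences in MDA-MB-231 were 0.36 ± 0.11 (SE; adjusted p = 0.0231) and 0.62 ± 0.11 (0.000459), and in PC3 the adjusted p was 0.262 and 0.254. The day 1 call in MDA-MB-231 was lost without untreated replicate 1 (0.0831), untreated replicate 3 (0.0527) or day 1 replicate 3 (0.0950). With 50000 peaks per list neither MDA-MB-231 difference was called, and that at day 10 turned to -0.14. PC3 at day 10 was called with median-of-ratios scaling (0.0355), with scaling within the chromosome (0.00631) and without PC3 day 10 replicate 3 (0.0121). Of its 57 regions, 7 were in all 18 lists and 28 were in MDA-MB-231 alone. Gained at both times in MDA-MB-231 were chr4:21409721-21410085 and chr4:21139432-21139795, neither in any PC3 list. In PC3, chr4:21451021-21451451 was gained at both times and was in all 9 MDA-MB-231 lists.

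KCNIP2 (chr10:101825974-101843800), the KCNIP of heart muscle, was the gene whose covered length fell. Its short window of 37.8 kb also holds parts of ARMH3 and OGA. Untreated MDA-MB-231 lists had 8.59, 8.99 and 8.97 kb, day 1 lists 6.87, 7.39 and 6.54 kb and day 10 lists 6.90, 7.30 and 7.11 kb. PC3 lists had 6.60, 6.99 and 7.39 kb untreated, 4.74, 5.22 and 5.96 kb at day 1, and 4.77, 4.65 and 6.39 kb at day 10. Treated and untreated lists did not overlap in either line. The log2 differences were -0.33 (adjusted p = 0.0226) and -0.30 (0.0350) in MDA-MB-231. In PC3 they were -0.37 (0.0240) and -0.39 (0.00519), each with a standard error of 0.10. With no scaling or median-of-ratios scaling none of the 4 was called (adjusted p 0.0697 to 0.696), and by number of peaks PC3 at day 10 turned to 0.13. With the gene body only, none of the 4 was called either (0.0925 to 0.220). When the parts of the window inside other protein-coding genes were left out, both MDA-MB-231 calls were lost (0.139 and 0.128). The PC3 call at day 1 was lost there as well (0.0892). Leaving out 1 list lost the call in 4 of 6 refits in MDA-MB-231 at day 1, in 6 of 6 at day 10 and in 4 of 6 in PC3 at day 1, with adjusted p up to 0.104.

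After treatment the peaks in the KCNIP2 window, which include those at OGA and ARMH3, were narrower, and their number was not lower. Untreated and day 1 MDA-MB-231 lists had a mean of 6.33 peaks each and day 10 lists 8.00, while mean covered length per peak, unscaled, was 1275, 1105 and 801 bp. In PC3 there were 6.00, 6.33 and 9.00 peaks with 1084, 954 and 654 bp each. Median peak width over whole lists also went from 365 to 592 bp in untreated to 333 to 422 bp in day 10 lists of MDA-MB-231, and from 429 to 455 bp to 320 to 480 bp in PC3. The part of this in the KCNIP2 values was not tested. No KCNIP2 region was gained or lost by treatment, out of 6 in MDA-MB-231 and 8 in PC3. Over the genome 4.25% to 10.4% of regions were gained and 0.402% to 1.30% lost. Between lines, chr10:101848235-101849371, at ARMH3, was in 9 of 9 PC3 lists and 0 of 9 MDA-MB-231 lists.

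DPP10 (chr2:114442641-115845780), the relative of DPP6 with the same role at Kv4 channels, was covered in PC3 and almost bare in MDA-MB-231. PC3 lists had 4.83, 5.09 and 4.52 kb untreated, 6.43, 5.14 and 4.66 kb at day 1, and 5.95, 5.49 and 4.56 kb at day 10, overlapping throughout (adjusted p 0.677 and 0.649). MDA-MB-231 was listed at 0 in 3 untreated lists, at 0.673, 0 and 0.435 kb at day 1 and at 0.499, 0.258 and 0.446 kb at day 10. It passed the filter through PC3, and the calls in MDA-MB-231 rest on 5 small peaks at each time: adjusted p was 0.0235 at day 1, where a list at 0 overlaps the untreated lists, and 0.00854 at day 10. With MDA-MB-231 fitted alone DPP10 did not pass the filter, so these calls are not read as a result. The day 1 call was lost in 5 of 6 refits that left out 1 list (adjusted p up to 0.124), and neither call was left when 50000 peaks per list, or the upper 50% of each list, were counted. In PC3 at day 10, 50000 peaks per list gave a call for lower coverage (0.00210). The region chr2:114551414-114551659 was gained at day 10 in both lines and is the 1 DPP10 region they share. In PC3 chr2:115443600-115444203 was gained at both times, while 8 DPP10 regions were in all 9 PC3 lists.

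The lines differed before treatment. Untreated PC3 was called higher than untreated MDA-MB-231 for 3 of the 5 partners other than DPP10 and lower for 2, against 21.0% higher and 44.3% lower over all genes. KCND2 was higher by 1.21 (adjusted p = 3.27e-06), KCND3 by 1.21 (1.79e-05) and KCNIP1 by 0.38 (0.000653). The KCND3 call was lost with 50 kb on each side (0.929) and with the upper 50% of each list (0.265). With 50000 peaks per list the KCND3 difference was 0 and not called. The KCNIP1 call was lost by number of peaks (0.380). The KCNIP2 call was lost with no scaling (0.110), with median-of-ratios scaling (0.452) and by number of peaks (0.0541). It was also lost with 50000 peaks per list (0.220) and with the upper 50% of each list (0.296). KCNIP4 was lower by -0.57 (0.000176) and KCNIP2 by -0.32 (0.00953). The KCNIP4 call was lost with the upper 50% of each list (0.875) and with 50000 peaks per list (0.378). DPP10 had 4.81 ± 0.286 kb in untreated PC3 and was listed at 0 in untreated MDA-MB-231, and since it passed the filter through PC3 that difference is given without a test. DPP6 itself was lower in PC3 in every list, at 0.0620 ± 0.107 kb against 0.990 ± 0.255 kb. Ordered by mean covered length, DPP6 ran from MDA-MB-231 day 10, MDA-MB-231 day 1 and PC3 day 10 down to PC3 day 1, untreated MDA-MB-231 and untreated PC3. Neighbours within the upper 3 overlapped, as did PC3 day 1 and untreated MDA-MB-231.

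The treatment effects were also compared between the lines. At day 1 the effect on KCND3 was smaller in PC3 by -1.41 ± 0.26 (SE; adjusted p = 0.00388), 1 of 5 partners called (1.86% of all genes higher and 3.44% lower), and at day 10 it was not called (0.257). At day 10 the effects on KCND2 (-0.81 ± 0.22 SE, adjusted p = 0.0205) and KCNIP4 (-0.46 ± 0.15 SE, 0.0477) were smaller in PC3, 2 of 5 (5.82% higher and 10.6% lower over all genes). The KCND3 call was lost with 50 kb on each side (0.169) and with 50000 peaks per list (0.381), and the KCND2 call with no scaling (0.154). The KCNIP4 call was lost in 10 of 12 refits that left out 1 list. The remaining differences between the lines had adjusted p from 0.0787 to 0.922. For DPP6 the effect in PC3 minus that in MDA-MB-231 was -0.78 ± 0.41 (SE) at day 1 and 0.82 ± 0.41 (SE) at day 10, without a test.

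Over the members other than DPP6, 11 of 114 MDA-MB-231 regions were gained at day 1 and 24 of 114 at day 10, and 6 and 22 of 135 in PC3. As shares these are 9.65%, 21.1%, 4.44% and 16.3%, beside 7.85%, 10.1%, 4.25% and 10.4% over the genome. None was lost against untreated cells, where the genome shares of lost regions were 0.676%, 0.901%, 0.402% and 1.30%. Between day 1 and day 10 in MDA-MB-231, 3 of 114 were lost (2.63%), 2 in KCND3 and 1 in KCNIP4, and 10 were gained (8.77%). The genome shares there were 2.46% lost and 2.32% gained.

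Other potassium channel genes give the setting. Over all genes, 10.9% were called higher and 15.5% lower in the first of the 4 comparisons used here, then 11.0% and 16.7%, 6.02% and 7.24%, and 11.8% and 33.1%, and the counts of each list stand beside these shares. Of 37 other voltage-gated alpha subunit genes, 33 were tested. MDA-MB-231 had 12 higher and 1 lower at day 1, then 14 and 2 at day 10, and PC3 had 6 and 0, then 10 and 1. KCNH1, which encodes the EAG1 channel, rose in PC3 from 0.515 ± 0.136 kb to 1.81 ± 0.353 and 4.19 ± 0.391 kb (adjusted p = 1.42e-05 and 1.75e-09). KCNB2, a delayed rectifier, rose in PC3 at day 10 from 2.89 ± 0.906 to 11.5 ± 1.35 kb (adjusted p = 0.000117). KCNH8 was listed at 0 in untreated MDA-MB-231 and had 0.882 ± 0.299 kb at day 1 and 0.845 ± 0.166 kb at day 10. No untreated list of that line reached the 500 bp of the filter, so this difference is given without a test. KCNH8 is among the 12 and 14 genes counted as higher in MDA-MB-231. KCNH4 fell in MDA-MB-231 at day 1 from 5.09 ± 0.673 to 2.93 ± 0.330 kb (adjusted p = 0.000207).

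The catalytic relatives of DPP6 were called in both directions in MDA-MB-231. Of 7 prolyl peptidase genes, MDA-MB-231 had 1 higher and 1 lower at day 1, then 1 and 2 at day 10, and PC3 had 0 and 1, then 0 and 4. The shares of all genes higher and lower were 10.9% and 15.5%, 11.0% and 16.7%, 6.02% and 7.24%, and 11.8% and 33.1%. DPP4 rose in MDA-MB-231 from 2.14 ± 0.112 to 3.35 ± 0.415 and 4.42 ± 0.168 kb (adjusted p = 0.000736 and 2.82e-06). PREP, a cytosolic peptidase, fell in PC3 from 6.06 ± 0.364 to 4.90 ± 0.193 and 4.33 ± 0.150 kb (adjusted p = 0.0328 and 0.000519). Of 15 other Kv channel partners, 14 were tested. MDA-MB-231 had 3 higher and 1 lower at day 1, then 1 and 1 at day 10, and PC3 had 0 and 0, then 1 and 0. The beta subunit gene KCNE1 rose in MDA-MB-231 from 0.497 ± 0.0740 to 1.15 ± 0.239 and 0.967 ± 0.158 kb (adjusted p = 0.00186 and 0.00916). NCS1, a calcium sensor that also binds Kv4, fell from 11.0 ± 0.235 to 8.38 ± 0.422 and 8.75 ± 0.0873 kb (0.00799 and 0.0184).

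Genes within 1 Mb of DPP6 were left out of a search for those whose covered length followed it most closely over the 18 lists. GRID1, a glutamate receptor delta subunit gene, had the highest Pearson r, 0.985, with group means of 6.23, 12.6 and 13.6 kb in MDA-MB-231 and 4.14, 6.65 and 13.5 kb in PC3. PHACTR1 (r = 0.958), the chloride channel gene ANO2 (0.955), the acid-sensing channel gene ASIC2 (0.953) and the proprotein convertase gene PCSK5 (0.948) followed. Of the partners, KCND3 had an r of 0.64 over the 18 lists but 0.975 within the 9 MDA-MB-231 lists and 0.978 within the 9 PC3 lists, and KCNIP1 had 0.59, 0.931 and 0.946. DPP10 had -0.33 over all lists. The points share lists, scaling and treatment groups, so these values are descriptions.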

How the data were processed

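ATAC-seq libraries of 54 samples (3 experimental replicates of each of 18 biological replicates, split before tagmentation per the labels) were deposited as 18 peak lists on GRCh38. Genrich 0.6.2, Bowtie2 2.3.5.1, SAMtools 1.6, Picard, FastQC 0.12.1 and R 4.4.1 are named, without roles, in the submitters' processing notes. The step that joined experimental replicates into a list is not given. Column 7 of each deposited list is a score per peak that the authors' peak caller wrote, read here as peak area and used for ranks inside that list. No counts are in the files, so depth is unknown.

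Peak-covered length was summed over each protein-coding gene (RefSeq, GRCh38.p14) with 10 kb on each side and divided by the list's total relative to the mean total. After an offset of 500 bp, log2 values of the 16816 genes that reached 500 bp in 3 or more lists were fitted with limma 3.58.1 in R 4.3.3, all 18 lists in 1 model with a mean-variance trend and 12 residual degrees of freedom, with Benjamini-Hochberg adjustment at 0.05. The code was tested on simulated data. Peaks of all lists that overlapped by at least 1 bp were merged into regions.

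The members and the gene lists were chosen with earlier results of these data known. Context genes were named by the largest called differences in each direction per list and comparison; regions were named by the number of treated lists that held them, and RBFOX3 at day 10 and KCND2, KCNIP1, KCNIP2, KCND3 and DPP6 regions beyond those were chosen after their values were seen.

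Replicate numbers are shared by the groups of a line, with no label that ties them to a common batch. Same-numbered lists deviated together in all 3 pairs, with correlations over 0.1, for MDA-MB-231 day 1 against untreated (0.389, 0.235 and 0.193), MDA-MB-231 day 10 against day 1 (0.419, 0.310 and 0.197) and PC3 day 10 against day 1 (0.345, 0.132 and 0.216). They did not in all pairs for the other comparisons within a line. Alternatives were another scaling, offset, peak selection, window, peak number in place of length, a replicate block and leaving out each list.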

Additional observations from a re-analysis of the deposited data

Results flagged for a closer look

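In KCND3, KCND2 and KCNIP4, treatment effects differed between the lines by the interaction test of limma, adjusted over all 16816 genes. The effect on KCND3 at day 1 was smaller in PC3 by -1.41 (adjusted p = 0.00388), and the call was kept in 12 of 12 refits that left out 1 list (adjusted p 0.000395 to 0.0146). It was lost with 50 kb on each side (0.169), 50000 peaks per list (0.381), the upper 50% of each list (0.232) and by number of peaks (0.0596). At day 10 the effect on KCND2 was smaller in PC3 by -0.81 (0.0205), a call lost without untreated MDA-MB-231 replicate 3 or MDA-MB-231 day 10 replicate 3 (adjusted p up to 0.0538). The effect on KCNIP4 at day 10 was smaller in PC3 by -0.46 (0.0477), and that call was lost in 10 of 12 such refits (adjusted p up to 0.114). No group has more than 3 lists, so single lists were not tested as outliers.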

How the results depend on the processing

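Of 29 called differences of the partners, 581 refits kept the direction and the call in 454, lost the call in 122 and reversed 5. Of 25 differences not called, 544 refits left 533 uncalled and called 11, and the sign changed in 67. DPP10 is counted among the partners here. The causes were not tested.

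DPP10 passed the filter through the PC3 lists, so its calls in MDA-MB-231 and between the lines are not read as results. Without DPP10, MDA-MB-231 had 4 partners higher and 1 lower at each time, and untreated PC3 had 3 higher and 2 lower than untreated MDA-MB-231. The number of partners called, here with DPP10 among the 6 tested, was 6 at both times in MDA-MB-231, 3 at both times in PC3, 0 and 2 between day 10 and day 1, 6 between untreated lines, and 1 and 2 for the difference between lines at day 1 and day 10. With 50000 peaks per list it became 2 and 3 in MDA-MB-231, 1 in PC3 at day 1, 3 between lines and 1 for the day 10 difference between lines. There KCND2 turned to -0.13 and -0.0569 in MDA-MB-231, KCNIP4 at day 10 to -0.14, and the difference between lines at day 10 to 0.0747 for KCND2 and -0.25 for DPP6. Regions gained in all member windows went from 20, 35, 8 and 30 to 6, 6, 3 and 6. With the upper 50% of each list, 2 were called in MDA-MB-231 at day 1, 1 between PC3 day 10 and day 1, 3 between lines, and 0 and 0 for the differences between lines. By number of peaks, 2 were called in MDA-MB-231 at day 1, 0 in PC3 at day 1, 1 and 0 between day 10 and day 1, and 0 and 0 for the differences between lines, and KCNIP2 in PC3 at day 10 turned to 0.13. Without scaling 1 was called between PC3 day 10 and day 1 and 0 for the day 10 difference between lines. That difference had 1 call with median-of-ratios scaling, scaling within the chromosome, an offset of 200 bp, the gene body only, or without other genes. PC3 at day 1 had 1 call with the gene body only, with 50 kb on each side, and with each line fitted alone, a setting chosen after seeing the data, which also gave 1 between PC3 day 10 and day 1.

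Leaving out 1 list gave 3 to 6 calls in MDA-MB-231 at day 1, 5 to 5 at day 10, 1 to 2 in PC3 at day 1, 3 to 4 at day 10, 0 to 0 and 0 to 2 between day 10 and day 1, 6 to 6 between lines, and 1 to 2 and 0 to 2 for the differences between lines. Gained regions ranged from 20 to 33, 35 to 45, 8 to 15 and 30 to 40. The replicate block changed no call of a partner, with counts of 6, 6, 3, 3, 0, 2, 1 and 2. The numbers of calls in this paragraph again include DPP10. Peak lists without counts limit what small peaks can show.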
